A study of Homo sapiens with 6 samples.

Results

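The Wnt ligand WNT9A and 9 genes of the beta-catenin arm of the pathway were followed in RNA-seq of HCT116 cells with and without a hairpin against STBD1. The genes were taken from a list of symbols: WNT9A, CTNNB1, APC, AXIN1, AXIN2, RNF43, ZNRF3, NKD1, TCF7 and TCF7L2. All 10 symbols matched an Ensembl gene among the 58395 genes measured in each library, and all 10 had enough counts to enter the test of 15566 genes. HCT116 is an established colorectal cancer line of epithelial origin. The shControl group held 3 biological replicates with a non-target hairpin and the shSTBD1 group held 3 with a hairpin against STBD1, a glycogen-binding protein implicated in the autophagy of glycogen. Per the study's methods, both hairpins were delivered by lentivirus and the infected cells were kept in puromycin or G418, so both groups carried a vector, and 1 hairpin sequence is given for each group. No other agent separated the groups in the labels.

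Wnt ligands are secreted, lipid-modified proteins that bind Frizzled and LRP receptors at the cell surface. Without a ligand, a destruction complex built on APC and AXIN marks beta-catenin, the product of CTNNB1, for degradation. When the complex is held back, beta-catenin enters the nucleus and works with TCF/LEF factors, and among the genes it turns on are AXIN2, RNF43, ZNRF3 and NKD1, whose products dampen the pathway again. HCT116 cells are known to carry an activating mutation in CTNNB1 with intact APC, so their beta-catenin is stable without a ligand.

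Libraries held between 17689097 and 21668274 expected counts, and the replicates are the study's biological replicates. STBD1 itself, the targeted gene, was at 16.1, 15.6 and 14.4 CPM (counts scaled to the TMM-adjusted library size) in shControl and at 11.6, 9.05 and 9.17 CPM in shSTBD1. It fell by 0.64 on the log2 scale, a fall of 35.8% (adjusted p = 2.9e-04, edgeR), with an adjusted p of 0.065 and 0.067 when TPM was tested with limma. The uncertainty of STBD1 from reads shared with other genes (RSEM's posterior SD) reached 10.5% of its count. Of 9 colorectal epithelial markers, 7 averaged at least 1 CPM, while VIL1 and LGALS4 stayed below that level in every library. Summed over the 9, the level was 3345 to 3584 CPM in shControl and 3970 to 4058 CPM in shSTBD1, so this sum moved with the groups. Most of it came from KRT8, KRT18 and KRT19, at 1689, 766 and 688 CPM on average in shControl. These keratins and CDH1 rose, while EPCAM, KRT20 and CDX2 did not pass (adjusted p = 0.42, 0.064 and 0.66, edgeR). Of 11 markers of other cell types, COL1A1 and CD68 averaged at least 1 CPM, and PTPRC, CD3E and MYH7 were at 0 in all libraries. The summed level was 42.9 to 48.8 CPM in shControl and 51.1 to 55.9 CPM in shSTBD1. CD68 rose by 0.47 on the log2 scale (adjusted p = 0.0027, edgeR, and at most 0.031 over the alternative fits). COL1A1, VWF and SNAP25 did not pass (adjusted p = 0.25, 0.84 and 0.090, edgeR). The part of either sum in the results on the Wnt genes was not tested.

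WNT9A and RNF43 carry the rise and the fall with the smallest p among the 10 genes, and their RefSeq promoter windows are shown for that reason. Each window runs from 250 bases before to 50 bases after an annotated start in GRCh38.p14 and is printed 5′ to 3′ on the gene's strand, which is the minus strand for both genes. The WNT9A window is chr1:227947883-227948182, and its capitals mark TATAA. The RNF43 windows are chr17:58417485-58417784 and chr17:58402672-58402971, for a pair of alternative starts, and their capitals mark CTTTG or its reverse complement CAAAG, the core of the letters that TCF factors bind.
WNT9A: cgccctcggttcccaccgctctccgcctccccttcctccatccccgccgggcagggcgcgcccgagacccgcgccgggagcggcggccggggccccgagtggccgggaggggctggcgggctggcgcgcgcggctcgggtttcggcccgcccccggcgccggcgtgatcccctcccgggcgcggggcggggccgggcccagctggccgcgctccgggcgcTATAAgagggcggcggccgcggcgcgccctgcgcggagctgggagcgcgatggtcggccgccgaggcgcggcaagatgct
RNF43, start 1: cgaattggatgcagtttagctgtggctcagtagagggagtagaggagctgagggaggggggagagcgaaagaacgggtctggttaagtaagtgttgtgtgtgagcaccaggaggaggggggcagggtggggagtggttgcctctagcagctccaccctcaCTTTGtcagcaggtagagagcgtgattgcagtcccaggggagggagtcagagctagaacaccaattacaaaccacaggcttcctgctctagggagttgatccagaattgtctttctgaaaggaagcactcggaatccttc
RNF43, start 2: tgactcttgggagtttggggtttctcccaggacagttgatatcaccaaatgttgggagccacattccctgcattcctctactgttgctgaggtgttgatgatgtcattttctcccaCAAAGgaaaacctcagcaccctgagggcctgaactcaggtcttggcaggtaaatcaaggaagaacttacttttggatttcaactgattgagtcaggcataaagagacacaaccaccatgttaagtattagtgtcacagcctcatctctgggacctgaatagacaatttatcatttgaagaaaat

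The WNT9A window had a GC content of 83.0% and 53 CG pairs, against a median GC of 58.7% over all 35116 RefSeq windows of this length. The RNF43 windows were far less GC-rich, at 54.3% and 43.7%. Windows were found for 7 of the 10 genes, 12 in all, and AXIN2, ZNRF3 and NKD1 had no entry. Searched on both strands, CTTTGAT and CTTTGAA, only some of the longer TCF letters, were in 0 of the 12 windows. They were in 2.62% and 4.43% of all windows. CTTTGTT, another longer form, was present in a window of TCF7L2 and, as its reverse complement AACAAAG, in a window of TCF7. Its share of all windows was not counted. The core CTTTG, which lies within each of these longer forms, was in 5 of the 12, at TCF7, TCF7L2 and RNF43, and in 47.5% of all windows. TATAA was in 3 of the 12, at WNT9A, CTNNB1 and TCF7, against 20.4% of all. These matches are letters in a window and say nothing of binding by a factor.

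WNT9A rose in shSTBD1. The gene (ENSG00000143816, chr1:227918656-227947932, minus strand, in GENCODE 44 on GRCh38, as for all positions of genes given here) encodes a secreted ligand known from joint and blood stem cell development. It was at 12.1, 11.2 and 9.93 CPM in shControl replicates 1 to 3 and at 19.4, 18.5 and 17.8 CPM in shSTBD1 replicates 1 to 3. Every shSTBD1 library was above every shControl library, and the gap between the groups was wider than the spread within either. The fitted change was 0.74 on the log2 scale (SE 0.083, a fold of 1.67), with an adjusted p of 1.1e-05 (edgeR, quasi-likelihood F-test, Benjamini-Hochberg over all 15566 genes). Its unadjusted p of 1.1e-07 (edgeR) was also under the stricter limit of 1e-05, as was that of 2.38% of all genes. The study used this limit with DESeq2 and beside a limit on the TPM fold change, which was not applied here. With 3 libraries against 3, an exact two-sided permutation test of this single gene could go no lower than its value of 0.1.

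The WNT9A change rested on 176 to 402 counts per library. The gene has 1 transcript in the gene models that the authors used with RSEM. None of its reads were shared with other genes (RSEM's posterior SD was 0 in every library). Its effective length stayed between 3689 and 3698 bases, so counts and per-length values moved alike. On the TPM scale (RSEM's length-corrected share of all transcripts) it was at 3.43 ± 0.299 (SD, n = 3) in shControl and 5.66 ± 0.287 in shSTBD1. Across 15 alternative fits the log2 change lay between 0.59 and 0.80 and the adjusted p between 2.0e-15 and 0.033. WNT9A was thus called in every alternative, as were 258 of the 2453 genes called in all (10.5%).

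The tested genes next to WNT9A on chromosome 1, with protein-coding genes ordered by start coordinate, did not pass the test. WNT3A, a ligand that activates the beta-catenin arm, lies 59066 bases away and changed by −0.16 on the log2 scale (SE 0.094, adjusted p = 0.29, edgeR). JMJD4 and ARF1, the next tested genes on either side in that order, which is not an order of distance, changed by −0.022 and −0.0037 on the log2 scale. PRSS38, at 72186 bases, had too few counts to test.

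The 3′ UTRs were searched for the 7 bases that pair with positions 2 to 8 of a guide strand made from each hairpin's target as the study's methods give it, TGTCACG for shControl and GATTTCT for shSTBD1. The WNT9A 3′ UTR held the shSTBD1 letters at 1 place and the shControl letters at 0 places. The site is shown, as it lies in the gene with the clearest change, with 11 bases on either side at chr1:227918762-227918790 on the minus strand in GRCh38 and with the 7 bases in capitals.
WNT9A, shSTBD1 letters: gtgcgtgcaatGATTTCTctacctcatct

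GATTTCT was in the 3′ UTR of 18.5% of 12984 tested genes with a UTR in GENCODE 44, and TGTCACG in that of 3.01%. Among the 10 genes, WNT9A, CTNNB1 and NKD1 held the former and AXIN1 the latter. The part of these sites in the WNT9A change was not tested.

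**Figure D1:**
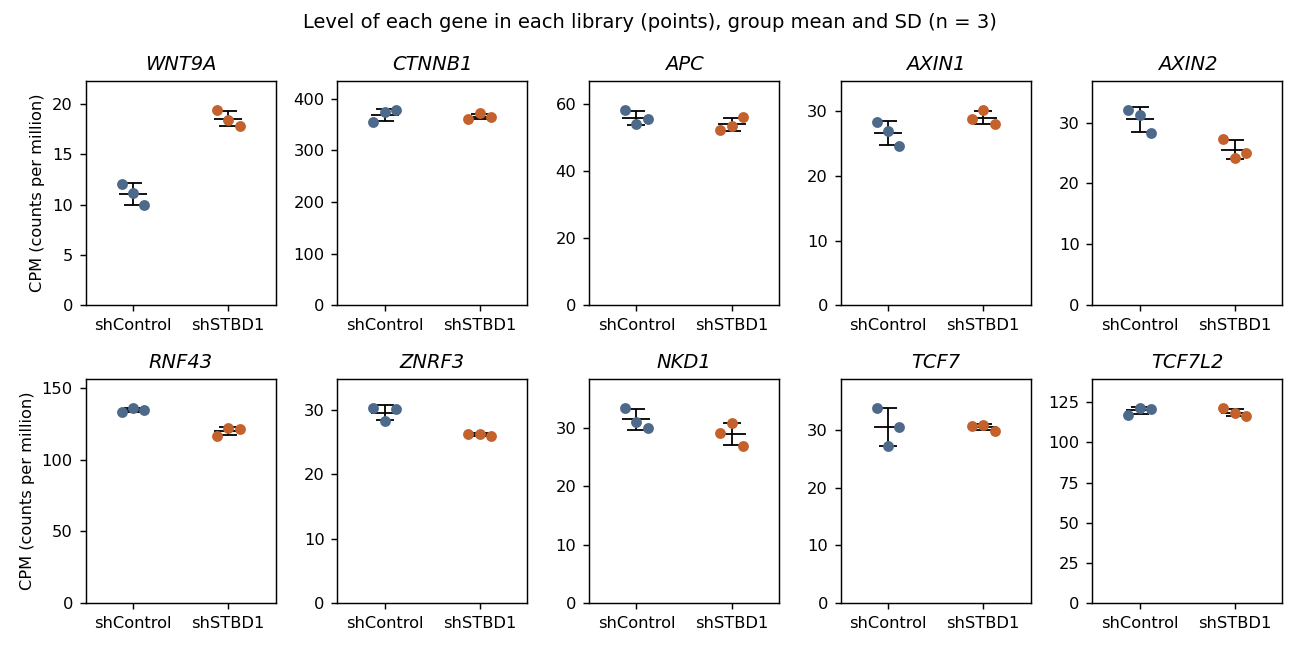
Level of each of the 10 genes in each library in CPM (vertical axes start at 0 and differ between panels); points are libraries, and bars are the group mean and SD of 3 libraries. WNT9A stands apart upward at 17.8 CPM or more in shSTBD1 against 12.1 CPM or less in shControl, AXIN2, RNF43 and ZNRF3 lie lower without overlap, and the other panels overlap.

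Among the 10 genes, 1 rose, 3 fell and 6 did not pass the adjusted threshold of 0.05. Over all genes, 15.8% passed, 8.22% upward and 7.54% downward. The groups did not overlap in CPM for 4 of the 10, against 33.6% of all genes. The median log2 change of the 10 was −0.034, beside 0.0023 over all genes tested. WNT9A was the only member past 1e-05.

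Of the 4 feedback genes that beta-catenin is known to induce, RNF43, ZNRF3 and AXIN2 fell by count and NKD1 did not pass the test. No call among the 3 held per length, where the calls over all genes also fell, from 2453 to 292, 290 and 510. RNF43 (chr17:58353676-58417595), a membrane ubiquitin ligase that removes Frizzled receptors from the cell surface, was at 133, 136 and 134 CPM in shControl and at 117, 122 and 121 CPM in shSTBD1. The lowest shControl library was above the highest shSTBD1 library. RNF43 fell by 0.17 on the log2 scale (SE 0.033, adjusted p = 0.0026, edgeR), a fall of 10.9%. The call was lost in the 3 alternatives that work per length, at an adjusted p of 0.12 in both limma fits of TPM and 0.058 with effective-length offsets, where the log2 change itself was −0.21 to −0.24.

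ZNRF3 (chr22:28883572-29057488), the paralog of RNF43 with the same role at the receptor, was at 30.3, 28.3 and 30.1 CPM in shControl and at 26.3, 26.3 and 25.9 CPM in shSTBD1. The groups did not overlap, and the shSTBD1 libraries lay close together. ZNRF3 fell by 0.18 on the log2 scale (SE 0.056, adjusted p = 0.042, edgeR). This call was lost in 12 of the 15 alternatives, among them DESeq2 at an adjusted p of 0.16 and no filter on low counts at 0.071.

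The lower ZNRF3 count came with a shorter effective length, which RSEM computes as the mean length of a gene's transcripts weighted by their abundance. It was 5053, 4755 and 4604 bases in shControl and 4287, 4200 and 4334 bases in shSTBD1, without overlap and 11.0% shorter on average (exact permutation p = 0.1, the smallest possible, and 0.8 after Benjamini-Hochberg adjustment over the 10 genes). Groups that did not overlap in effective length were found for 9.55% of all tested genes. Per length, ZNRF3 was at 7.06 ± 0.414 TPM in shControl and 6.90 ± 0.145 TPM in shSTBD1 (SD, n = 3), which overlap. With effective-length offsets its log2 change was −0.0081 with an adjusted p of 0.97.

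**Figure D2:**
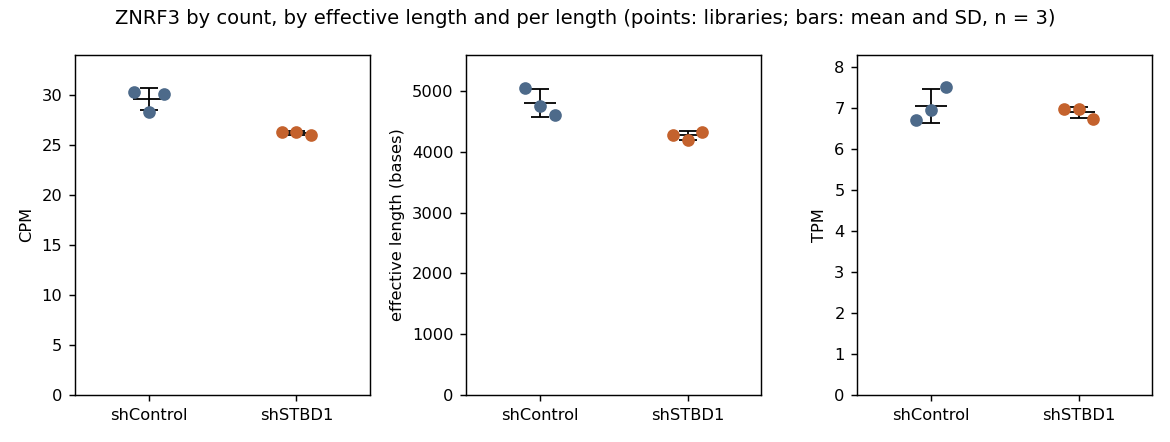
ZNRF3 in each library as CPM (left), RSEM effective length in bases (middle) and TPM (right), all axes from 0; points are libraries, bars the mean and SD of 3. CPM and effective length were lower in shSTBD1 without overlap, while TPM overlapped at 7.06 ± 0.414 against 6.90 ± 0.145.

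AXIN2 (chr17:65528563-65561648), a scaffold of the destruction complex and a widely used readout of beta-catenin activity, was at 32.0, 31.3 and 28.2 CPM in shControl and at 27.3, 24.3 and 25.0 CPM in shSTBD1. The groups were separate, though shControl 3 and shSTBD1 1 lay within 1 CPM of each other. AXIN2 fell by 0.26 on the log2 scale (SE 0.065, adjusted p = 0.011, edgeR), a fall of 16.7%. The call was lost per length, at an adjusted p of 0.27 to 0.28, without shSTBD1 2 at 0.074 and without shSTBD1 3 at 0.051. The direction held in all 15 alternatives, from −0.31 to −0.23 on the log2 scale.

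NKD1 (chr16:50548396-50649249), an inhibitor that acts on Dishevelled, was at 33.5, 31.0 and 30.0 CPM in shControl and at 29.2, 30.8 and 27.0 CPM in shSTBD1. The groups overlapped, and the log2 change of −0.12 (SE 0.063) had an adjusted p of 0.22 by edgeR. The effective length of NKD1 ranged from 9129 to 15251 bases among libraries, a range of 48.4% of the mean, and its log2 change was 0.020 with effective-length offsets.

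The core of the destruction complex and beta-catenin itself gave no call. CTNNB1 (chr3:41194741-41260096) was at 356, 374 and 378 CPM in shControl and at 361, 372 and 365 CPM in shSTBD1, with a log2 change of −0.013 (SE 0.032, adjusted p = 0.84, edgeR). APC (chr5:112707518-112846239), the large scaffold that presents beta-catenin for degradation, was at 58.2, 54.1 and 55.6 CPM in shControl and at 52.3, 53.4 and 56.0 CPM in shSTBD1. The APC groups overlapped, with a log2 change of −0.052 (SE 0.046, adjusted p = 0.49, edgeR).

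AXIN1 (chr16:287440-352723), the constitutive scaffold that is the paralog of AXIN2, was at 28.3, 26.9 and 24.7 CPM in shControl and at 28.8, 30.1 and 28.1 CPM in shSTBD1. Its log2 change of 0.12 (SE 0.062) was opposite in sign to that of AXIN2 and did not pass, at an adjusted p of 0.20 by edgeR.

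The nuclear partners of beta-catenin gave no call either. TCF7 (chr5:134114681-134151865) was at 33.9, 27.3 and 30.6 CPM in shControl and at 30.8, 30.9 and 29.9 CPM in shSTBD1. All shSTBD1 libraries lay within the shControl range, and the log2 change was −0.0013 (SE 0.069, adjusted p = 0.99, edgeR), with a sign that changed in 9 of 15 alternatives. TCF7L2 (chr10:112950247-113167678), the main TCF of intestinal epithelium, was at 117, 121 and 121 CPM in shControl and at 121, 118 and 117 CPM in shSTBD1, with a log2 change of −0.016 (SE 0.034, adjusted p = 0.81, edgeR).

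**Figure D3:**
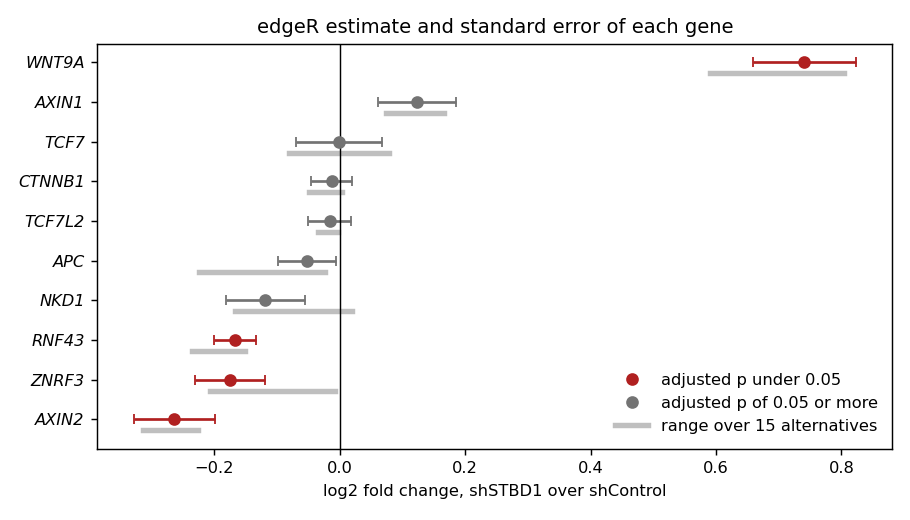
Log2 fold change of shSTBD1 over shControl for each of the 10 genes (points) with its standard error from edgeR (bars); red marks an adjusted p under 0.05, and grey lines span the 15 alternative fits. WNT9A lies alone at 0.74, the 3 red points on the left lie between −0.26 and −0.17, and the grey line of ZNRF3 reaches −0.0081.

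Levels are compared between genes per length, as the mean TPM of all 6 libraries. CTNNB1 was the highest at 182 TPM, followed by TCF7L2 at 51.7 and RNF43 at 36.3, each separate from its neighbours in every library. TCF7 at 13.1, APC at 12.2 and AXIN2 at 12.1 TPM could not be ordered, since their libraries overlapped. AXIN1 at 9.80 TPM overlapped with APC and AXIN2, and ZNRF3 at 6.98 TPM was separate from AXIN1. WNT9A at 4.55 TPM and NKD1 at 2.78 TPM were the lowest, and they overlapped because of the shControl level of WNT9A.

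Within a library, the paralogs were set against each other per length in 3 pairs. AXIN2 was at 1.53, 1.31 and 1.37 times AXIN1 in shControl and at 1.11, 1.06 and 1.05 times in shSTBD1, so the excess of AXIN2 over AXIN1 was smaller in each shSTBD1 library. The difference was −0.39 on the log2 scale (exact two-sided permutation p = 0.1, the smallest that 3 against 3 allows) and −0.38 from expected counts. ZNRF3 was at 0.180 ± 0.0092 of RNF43 in shControl and 0.207 ± 0.0075 in shSTBD1 (SD, n = 3), without overlap, but this difference of 0.20 on the log2 scale became −0.0084 from expected counts. TCF7 was at 0.251 ± 0.031 of TCF7L2 in shControl and 0.257 ± 0.013 in shSTBD1, with overlap (exact permutation p = 0.9, n = 3).

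Other genes of the pathway were described from 9 lists of 147 genes, 5 of which stand in more than 1 list. Of these, 113 had enough counts to test, 15 rose and 16 fell, which is 27.4% beside the 15.8% of all genes, and their median log2 change was 0.013. By list, the share called was 6.67% for receptors, 8.33% for cytoplasmic transducers and 16.7% for other ligands. It was 25% for ligand processing and for planar polarity and 33.3% for secreted inhibitors. The highest shares were 45% for transcriptional targets, 50% for the junction list and 52.9% for nuclear effectors. The calls thinned out per length, to 1 higher and 3 lower in both limma fits and 4 higher and 3 lower with effective-length offsets, as did the calls over all genes, from 2453 to 292, 290 and 510. DESeq2 called 9 higher. TBL1XR1, BCL9L, CCND1 and BMP4 were called in every alternative, and each of the other calls was lost in at least 1.

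Of the 18 other ligands, 12 were tested, 1 rose and 1 fell. WNT16 was by far the most abundant, at 60.0 ± 5.40 TPM in shControl and 63.1 ± 1.82 in shSTBD1 (SD, n = 3), which was 68.9% and 68.8% of the summed ligand TPM. WNT16 rose by 0.12 on the log2 scale (adjusted p = 0.040, edgeR) and WNT3 fell by 0.38 (adjusted p = 0.035). Per length the WNT16 change was as little as 0.076, with an adjusted p of up to 0.60 (limma). WNT9A went from 3.94% to 6.17% of the ligand TPM. By mean TPM it was the fifth ligand in shControl and the third in shSTBD1, but its libraries overlapped those of WNT7B and WNT11 in shControl and of WNT10B in shSTBD1, so neither place was resolved. In shSTBD1 every library of WNT9A was above every library of WNT3A and WNT7B.

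At the cell surface, 15 of 16 receptors were tested and only LRP5, a co-receptor that binds the Axin scaffold, was called. LRP5 was at 92.2, 86.6 and 85.4 CPM in shControl and at 76.4, 76.1 and 74.5 CPM in shSTBD1, and fell by 0.22 on the log2 scale (adjusted p = 0.0012, edgeR). PTK7, the most abundant receptor per length, changed by less than its SE. In the list of ligand processing and the R-spondin arm, 4 of 9 genes were tested and WLS, which carries Wnt ligands to the surface for secretion, rose from 79.7, 81.8 and 76.9 CPM to 92.4, 93.7 and 88.0 CPM. The log2 change of WLS was 0.20 with an adjusted p of 0.0024 by edgeR. Per length its groups overlapped, at 51.0, 52.4 and 51.2 TPM in shControl and 60.2, 63.0 and 48.6 TPM in shSTBD1. Over the 15 alternative fits the adjusted p reached 0.46 for WLS and 0.14 for LRP5. The log2 change of LRP5 lay between −0.24 and −0.19 in those fits.

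Of 16 secreted inhibitors and their partners, 6 were tested and 2 rose. DKK1, which blocks LRP receptors and is itself a beta-catenin target, was at 376, 441 and 430 CPM in shControl and at 510, 499 and 500 CPM in shSTBD1. The groups did not overlap, and the log2 change was 0.28 (SE 0.046, adjusted p = 6.0e-04, edgeR). Over the 15 alternative fits the adjusted p of DKK1 reached 0.14. KREMEN1, the receptor of DKK1, rose by 0.14 on the log2 scale with an adjusted p of 0.046. Of 25 cytoplasmic transducers, 24 were tested: NKD2, the paralog of NKD1, rose by 0.23 (adjusted p = 0.017, edgeR) and BTRC, the ubiquitin ligase subunit that binds phosphorylated beta-catenin, fell by 0.14 (adjusted p = 0.045). Per length KREMEN1 changed by as little as 0.054, NKD2 by 0.15 and BTRC by −0.047, with an adjusted p of up to 0.75, 0.26 and 0.85. CSNK1A1, the most abundant of that list per length, had a log2 change of 0.09 and an adjusted p of 0.074.

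Among nuclear effectors, 17 of 20 were tested, 4 rose and 5 fell. TBL1XR1, a subunit of a co-repressor complex that also binds beta-catenin, was at 107, 110 and 112 CPM in shControl and at 156, 153 and 152 CPM in shSTBD1. It rose by 0.49 on the log2 scale (SE 0.033, adjusted p = 6.9e-08, edgeR), while its paralog TBL1X fell by 0.26 (adjusted p = 0.0017). Opposite signs were also seen by count for the co-activators that link beta-catenin to PYGO: BCL9 rose by 0.25 (adjusted p = 0.0032) and BCL9L fell by 0.22 (adjusted p = 3.0e-04). Per length the BCL9 change shrank, to as little as 0.052 with an adjusted p of 0.85 (limma). TLE5, the most abundant effector per length, changed by −0.05 with an adjusted p of 0.35, and LEF1 was detected in 1 library only, at 0.052 CPM.

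Of 26 transcriptional targets, 20 were tested, and 4 rose and 5 fell by count. Of these calls, only those of CCND1 and BMP4, both downward, were kept in every alternative. CCND1, the cyclin that drives entry into S phase, was at 646, 561 and 562 CPM in shControl and at 448, 438 and 431 CPM in shSTBD1. CCND1 fell by 0.42 on the log2 scale (SE 0.045, adjusted p = 7.0e-06, edgeR), the strongest call of this list. BMP4, a secreted signal, and SOX9, a transcription factor of crypt cells, each fell by 0.25, with adjusted p of 1.1e-04 and 0.0013. MYC, at 291, 316 and 308 CPM in shControl and 339, 334 and 325 CPM in shSTBD1, rose by 0.12 (SE 0.035, adjusted p = 0.022, edgeR), without overlap. The crypt stem cell genes LGR5 and ASCL2 could not be tested: LGR5 was at 0.25 CPM or less and ASCL2 at 0 in every library.

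In the planar polarity list 12 of 14 genes were tested and 3 fell, VANGL1 by 0.20, CELSR2 by 0.19 and CELSR1 by 0.16 on the log2 scale, with adjusted p of 0.0042, 0.0090 and 0.010 by edgeR. Per length VANGL1 changed by as little as −0.087, with an adjusted p of up to 0.44 among the limma and effective-length fits. RHOA, the most abundant of that list per length, had an adjusted p of 0.96. At the junction, where beta-catenin also binds cadherins, 6 of 8 genes were tested and 3 rose. E-cadherin, CDH1, was at 76.9, 72.0 and 69.4 CPM in shControl and at 89.4, 90.0 and 87.1 CPM in shSTBD1, a log2 change of 0.29 (SE 0.042, adjusted p = 1.8e-04, edgeR). JUP, which encodes plakoglobin, rose by 0.19 and the P-cadherin gene CDH3 by 0.12, with adjusted p of 7.5e-04 and 0.032, while CTNNA1, the most abundant per length, had a log2 change of 0.00. CDH1 is also one of the epithelial markers whose sum moved with the groups.

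The profile of WNT9A over the 6 libraries was most like that of MBOAT2, an acyltransferase of membrane lipids, with a Pearson r of 0.999 in log2 CPM. CDC6 followed at 0.998, AKR7A2 at 0.996, HSBP1L1 at 0.995 and STARD4, which binds cholesterol, at 0.995. Since the 6 libraries fall into 2 groups that WNT9A separates, a high r is reached by other genes that differ between the groups too: 324 of 15555 genes (2.08%) had 0.95 or more. The 5 genes rose by less than WNT9A, with log2 changes between 0.12 and 0.34.

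Several of the 10 genes share their locus with another gene, and whether counting used the strand is not given in the sources used here. TCF7 overlaps SKP1 on the opposite strand, which was at 184 CPM on average and changed by 0.041 on the log2 scale (adjusted p = 0.47, edgeR). RNF43 overlaps TSPOAP1-AS1 at 2.55 CPM, CTNNB1 overlaps ULK4 at 3.04 CPM, and ZNRF3 overlaps ZNRF3-AS1 at 0.23 CPM. Of the 10 genes, AXIN2 had the largest uncertainty from shared reads, at most 0.69% of its count.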

How the data were processed

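RNA was measured by paired-end RNA-seq in 6 HCT116 libraries, 3 shControl and 3 shSTBD1. Per the labels and the study's methods, the authors aligned reads to hg38 with STAR 2.7.1a and Ensembl 93 gene models and estimated abundance with RSEM 1.3.1. The deposited expected counts are not normalized, and the deposited TPM values are scaled by the authors for effective length and library. The deposited effective lengths, and RSEM's posterior SDs of the counts, were also read.

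Expected counts were rounded and tested with edgeR 4.0.16 in R 4.3.3 (filterByExpr, TMM, quasi-likelihood, group as the only term), with Benjamini-Hochberg adjustment over all 15566 genes and a threshold of 0.05. Symbols matched 57754 of 58395 genes. The alternatives were DESeq2 1.42.0, other scaling and filters, limma 3.58.1 on log2(TPM + 1) and log2(TPM + 0.1), effective-length offsets, a replicate block and leaving out each library. Totals of 17689097 to 21668274 expected counts per library gave each of the 10 genes at least 176 counts in every library.

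The 10 genes and the lists were chosen with earlier results of these data known. Named were the 10 genes, STBD1, at most 4 called genes per list with the smallest p, the most abundant gene per list, LGR5, ASCL2, MYC and CCND1, the 5 genes most correlated with WNT9A, and its neighbours. LEF1, the overlapping genes and single marker genes were named outside this rule. The promoter windows are from RefSeq, and the 3′ UTR sites from the canonical transcripts of GENCODE 44.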

Additional observations from a re-analysis of the deposited data

How the results depend on the processing

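WNT9A kept its direction and its call in all 15 alternatives. The count of 3 members that fell became 0 with limma on log2(TPM + 1), with limma on log2(TPM + 0.1) and with effective-length offsets, and ranged from 1 to 3 when 1 library was left out, with RNF43 alone without shSTBD1 2 or shSTBD1 3. The 15 other pathway genes that rose became 9 with DESeq2, 1 in both limma fits, 4 with effective-length offsets and 8 to 17 when 1 library was left out, with 8 without shSTBD1 2 and 9 without shSTBD1 1. The 16 that fell became 3 in both limma fits and with effective-length offsets. The log2 difference of ZNRF3 to RNF43 was −0.0084 from expected counts.

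Among the 10 genes, signs turned only for changes that did not pass the test. TCF7 was at 0.0097 with library size alone, 2.1e-05 with no filter, 0.0056 and 0.0061 in the limma fits, 0.026 with effective-length offsets and −0.081 to 0.079 over the fits without 1 library. NKD1 was at 0.0022 and 0.0021 in the limma fits and 0.020 with effective-length offsets. CTNNB1 ranged from −0.041 to 0.0044 over the fits without 1 library.

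Whether the replicate numbers pair the libraries was not settled. The deviations of same-numbered libraries correlated at 0.071, 0.068 and −0.0084, and those of differently numbered libraries at −0.074 to 0.010. Under a replicate block, 1 member rose and 2 fell, ZNRF3 no longer passed, at an adjusted p of 0.050, and TCF7 was at 0.0029. The knockdown of STBD1 itself had an adjusted p of 0.065 and 0.067 in the limma fits. With counts of 176 to 402, WNT9A is the member whose depth limits it most.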
